A study of Mus musculus with 14 samples.

Results

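The data describe 10 mouse genes of the blood vessel wall and of the signals that shape it: Vegfa, Pgf, Kdr, Flt1, Nrp1, Angpt2, Tek, Cdh5, Pecam1 and Slit2. They were chosen by symbol, as every non-control probe whose gene name on the array equals one of these symbols, which gave 13 of the 55681 probes and 10 of the 36161 gene names. Expression was measured on 14 one-colour Agilent arrays, 1 array a sample. Healthy small intestine (3 arrays) and colon (3) were tissue labelled C57BL/6J, and adenomas (3) and the tissue adjacent to adenoma (2) were tissue labelled APCmin/+. CT26 (3) is a colorectal cell line bought from a repository. In its comparison with CT26 cells, the study describes the colon and small intestine as mucosa of healthy mice. The Apc Min allele truncates a negative regulator of Wnt signalling, so that mice heterozygous for it grow many adenomas in the small intestine. The sample list of the study places all adenoma and adjacent pieces in 1 Apc Min/+ mouse and the small intestines in different C57BL/6J mice. The spread of the adenoma and adjacent arrays is therefore that between pieces of 1 animal. In the p-values against small intestine it is pooled with the spread between C57BL/6J mice. None of these p-values measures the spread between Apc Min/+ animals. It also lists 1 colon sample under an Apc Min/+ mouse, where the labels give C57BL/6J for all 3. CT26 cells came from a BALB/c mouse and grew in culture, so strain, culture and transformation cannot be told apart in their comparison with colon.

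Vascular endothelial growth factors are secreted ligands that bind tyrosine kinase receptors on endothelial cells and drive sprouting and permeability, while neuropilins act as co-receptors. Angiopoietins bind the receptor TIE2 and set how stable the vessel wall is, and VE-cadherin and PECAM-1 hold endothelial cells together. In the intestine a dense capillary bed fills the core of each villus, and tumours that grow depend on new vessels from such beds.

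Each value below is the log2 of a spot's processed signal minus the 75th percentile of its array, so 0 is the level below which 75% of the spots of that array lie. Genes count as called when limma put their log2 fold change at 1.2 or more in either direction with a p, adjusted by Benjamini and Hochberg's method across every probe tested, no higher than 0.01. Between 46.85% and 58.2% of probes lay well above background on an array. Colon replicate 3 stood apart from its group: it correlated at 0.934 to 0.938 with the other colon arrays, which correlated at 0.985 with each other, and at 0.951 to 0.969 with the small intestine arrays. The median of 10 small intestine enterocyte genes was 5.04 on that array against -3.30 and -3.23 on the other colon arrays, and the values of the 10 genes that use colon are therefore given with and without it. In CT26 cells 5 of 8 epithelial markers (Epcam, Cdh1, Krt19, Vil1 and Cldn3) were well above background on 0 of 3 arrays, and Krt18 and Cldn7 on 3 of 3.

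**Figure D1:**
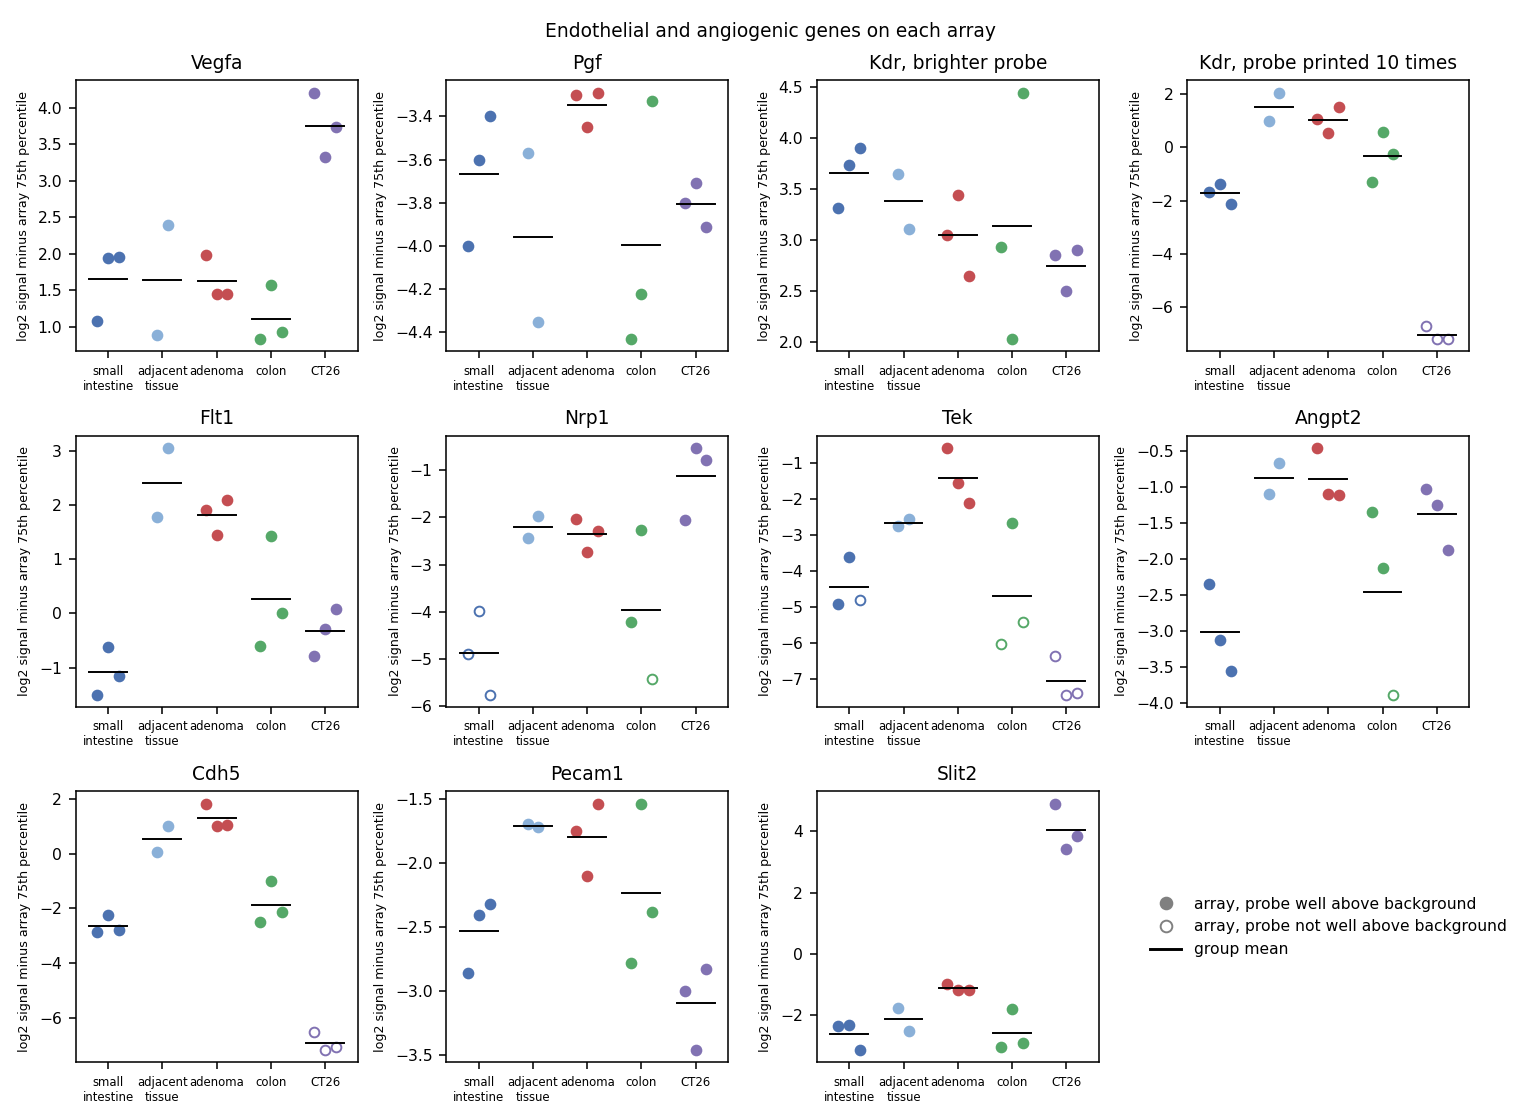
Level of each gene on each array, as log2 signal minus the array's 75th percentile, by group; points are arrays, open points are arrays where the probe was not well above background, and lines are group means. Cdh5, Flt1, Tek, Nrp1, Angpt2 and the Kdr probe printed 10 times sit higher on adenoma than on small intestine arrays, Vegfa and Slit2 are highest in CT26, and the axes differ between panels.

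Vegfa, the main growth factor for endothelial cells, was not called between any of the intestinal tissues and was high in CT26 cells. Its brighter probe (chr17:46154387-46154446, mm9, minus strand) read 1.07, 1.94 and 1.95 in small intestine, 0.88 and 2.39 in adjacent tissue and 1.98, 1.45 and 1.45 in adenomas. Colon read 0.83, 1.57 and 0.93, and CT26 read 4.21, 3.32 and 3.74. All 3 CT26 arrays lay above every tissue array, whereas the tissue groups overlapped. CT26 was 6.25-fold higher than colon (log2 fold change 2.64, standard error 0.358, limma adjusted p = 0.000665), and 2.55 on the log2 scale without colon replicate 3. The adenoma minus small intestine difference was -0.03 (standard error 0.293). A second Vegfa probe gave the same calls, with CT26 6.16-fold above colon (limma adjusted p = 0.00157).

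Pgf, a relative of Vegfa that binds Flt1 but not Kdr, stayed in a narrow range. The lowest of its 14 values was -4.43 in colon and the highest was -3.29 in an adenoma, with all arrays well above background. The 3 adenoma arrays, at -3.30, -3.45 and -3.29, lay above both adjacent arrays, at -3.57 and -4.35, but the difference of 0.62 was not called (standard error 0.255, limma adjusted p = 0.137). CT26 minus colon was 0.19 with a standard error of 0.355, and 0.52 without colon replicate 3.

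The receptor Kdr (VEGFR2), which carries most of the Vegfa signal in endothelium, was read by 2 probes of the same transcript that disagreed. Their middle 30 bases (bases 16 to 45 of each probe, 5′ to 3′) are shown because the account of Kdr turns on them.
Kdr brighter probe, within chr5:76330395-76330454 (mm9, minus strand): ggtcctgtcccggctccgcccccaactcct
Kdr probe printed 10 times, within chr5:76329309-76329368 (mm9, minus strand): gaattttaacctataaaactatgtctactg
The first stretch is 73.3% G and C and the second 26.7%, and over the whole probes the shares are 55% and 35%. On the probe printed 10 times, small intestine read -1.67, -1.36 and -2.14, adjacent tissue 0.98 and 2.05, adenomas 1.06, 0.53 and 1.51, and colon -1.30, 0.58 and -0.26. CT26 read -6.70, -7.17 and -7.18 there and was not well above background on any of the 3 arrays. The adenoma arrays lay above all small intestine arrays, by 6.76-fold (log2 fold change 2.76, standard error 0.308, limma adjusted p = 0.00062). CT26 was at least 25.2-fold lower than colon (limma adjusted p = 2.93e-05), counted against the lowest signal well above background on each CT26 array, and the fitted value was -6.69, or -6.66 without colon replicate 3. With the authors' normalized values it was -3.04 and with normexp background correction -3.41, both smaller than this bound and both called.

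On the brighter Kdr probe, by contrast, the adenoma arrays overlapped those of small intestine and adjacent tissue, and CT26 overlapped colon and adenomas but lay below small intestine and adjacent tissue. It read 3.32 to 3.91 in small intestine, 3.11 and 3.65 in adjacent tissue, 2.65 to 3.44 in adenomas, 2.03 to 4.45 in colon and 2.50 to 2.90 in CT26. No comparison was called on it, and its CT26 minus colon value went from -0.39 to 0.27 without colon replicate 3. Among the genes whose pattern over the 14 arrays came nearest to the brighter probe were Fgf6 and 1700008J07Rik, at root mean square differences of 0.102 and 0.104 on the log2 scale. Nearest to the probe printed 10 times were Robo4, Cxcl12 and Egfl7, at 0.367, 0.473 and 0.566. The rule reads each gene from its brighter probe, so Kdr counts as not called below unless the other probe is named.

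Flt1 (VEGFR1), which binds Vegfa and Pgf and in a soluble form traps them, rose in adenomas. Its probe at chr5:148373791-148373850 (mm9, minus strand) read -1.50, -0.62 and -1.15 in small intestine, 1.78 and 3.06 in adjacent tissue, and 1.92, 1.46 and 2.11 in adenomas. Every adenoma and adjacent array was above every small intestine array. Adenomas were 7.56-fold above small intestine (standard error 0.279, limma adjusted p = 0.000347), and adjacent tissue was 11.4-fold above it but not called (limma adjusted p = 0.0421). Colon read -0.61, 1.44 and 0.00 and CT26 -0.79, -0.28 and 0.09, which overlapped. CT26 minus colon was -0.61, and -0.75 without colon replicate 3. A second Flt1 probe, for a different transcript record, was not well above background on any of the 14 arrays and gave no level.

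Nrp1, the co-receptor shared by Vegfa and class 3 semaphorins, was not well above background on any small intestine array (-4.90, -3.98 and -5.76). It read -2.44 and -1.97 in adjacent tissue and -2.04, -2.74 and -2.28 in adenomas, well above background on all 5. On this scale adenomas were at least 4.17-fold higher than small intestine (2.06 as log2, limma adjusted p = 0.00357), and the fitted log2 value was 2.53. With the authors' normalized values it was 1.07 and with normexp 0.90, both smaller than this bound and neither called. Adjacent tissue was at least 4.61-fold higher than small intestine (2.21 as log2), without a call (limma adjusted p = 0.0583). The authors' values gave 1.12 there and normexp 1.13, again smaller than the bound. In CT26 Nrp1 read -2.06, -0.53 and -0.79, above the colon arrays at -4.21, -2.26 and -5.44, of which 2 of 3 were well above background. That difference of 2.84 was not called (standard error 0.797, limma adjusted p = 0.0188), and it was 2.11 without colon replicate 3 and 3.70, called, without colon replicate 2. With the authors' normalized values it was 1.81, and with all 5 groups in 1 fit 2.84, both called.

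Tek (TIE2), the angiopoietin receptor of endothelium, read -4.92, -3.60 and -4.80 in small intestine, where 2 of 3 arrays were well above background. It read -2.75 and -2.56 in adjacent tissue and -0.59, -1.56 and -2.12 in adenomas. The 3 tissues were thus fully separated, in the order small intestine, adjacent tissue, adenoma. Adenomas were 8.09-fold above small intestine (standard error 0.485, limma adjusted p = 0.00264), and 2.34-fold above adjacent tissue without a call (limma adjusted p = 0.102). The log2 difference from small intestine was 3.02, and it was 1.64 with the authors' normalized values and 1.5 with normexp background correction, both called. In CT26 cells 0 of 3 arrays were well above background, against 1 of 3 in colon (replicate 2, at -2.66), so CT26 against colon was not tested for Tek.

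Angpt2, the antagonist of TIE2 that endothelial cells release from stores, read -2.34, -3.13 and -3.55 in small intestine. Adjacent tissue read -1.09 and -0.66 and adenomas -0.46, -1.09 and -1.11. The adenoma and adjacent groups overlapped and both lay above small intestine. The adenoma difference was 4.35-fold (standard error 0.343, limma adjusted p = 0.00271), and the adjacent difference 4.37-fold without a call (limma adjusted p = 0.0548). On the log2 scale the adenoma difference was 2.12, and 1.46 and 1.33 with the authors' values and with normexp, both called. Colon spanned -3.88 to -1.34 and overlapped CT26, which read -1.02, -1.25 and -1.87. The CT26 minus colon difference was 1.07 (standard error 0.629), and 0.36 without colon replicate 3, the array where Angpt2 was not well above background.

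Cdh5 (VE-cadherin), the cadherin of endothelial junctions, had the largest adenoma difference of the 10 genes. It read -2.86, -2.25 and -2.79 in small intestine, 0.06 and 1.0 in adjacent tissue, and 1.82, 1.02 and 1.05 in adenomas (chr8:106668159-106668218, mm9, plus strand). No array of one of these groups overlapped another group. Adenomas were 15.2-fold above small intestine (log2 fold change 3.93, standard error 0.281, limma adjusted p = 0.000137), and the log2 difference was 3.30 with the authors' values and 3.13 with normexp. Adenomas and adjacent tissue differed by 0.77, which was not called (standard error 0.376, limma adjusted p = 0.192). Colon read -2.51, -0.99 and -2.13. CT26 read -6.51, -7.18 and -7.05, not well above background on any array, and was at least 8.57-fold below colon (limma adjusted p = 7.87e-05). The fitted log2 value was -5.04, and -5.16 without colon replicate 3, but -1.72 with the authors' values and -2.26 with normexp, both smaller than the bound and both called.

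Pecam1 (CD31), an adhesion molecule of endothelium that platelets and leukocytes also carry, moved in the same direction as Cdh5 by much less. Small intestine read -2.86, -2.41 and -2.32, adjacent tissue -1.70 and -1.72, and adenomas -1.75, -2.10 and -1.54. The adenoma arrays were all above small intestine, by 1.67-fold (standard error 0.226, limma adjusted p = 0.03), which met neither threshold. CT26 read -3.00, -3.46 and -2.83 and remained well above background on all 3 arrays, below every colon array (-2.78, -1.54 and -2.38) by 1.82-fold (limma adjusted p = 0.103). The log2 value of -0.86 was -0.93 without colon replicate 3.

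Slit2, a secreted guidance ligand of Robo receptors that acts on axons and vessels, was read at chr5:48696673-48696732 (mm9, plus strand). It gave -2.36, -2.33 and -3.14 in small intestine, -1.76 and -2.50 in adjacent tissue, and -0.97, -1.17 and -1.19 in adenomas. Colon read -3.03, -1.79 and -2.91, and CT26 read 4.90, 3.41 and 3.85. Both tumour groups lay above their tissue: adenomas by 2.83-fold over small intestine (standard error 0.25, limma adjusted p = 0.00302) and CT26 by 99.1-fold over colon (log2 fold change 6.63, standard error 0.5, limma adjusted p = 3.63e-05). Without colon replicate 3 the CT26 difference was 6.46. Against adjacent tissue, adenomas were 2.03-fold higher with no overlap of arrays, which was not called (limma adjusted p = 0.0411).

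Slit2 had the largest CT26 difference of the 10 genes with Kdr read from its brighter probe, while the Kdr probe printed 10 times was at -6.69. Since the study concerned DNA methylation, the 250 bases before the start of Slit2 are shown (RefSeq, GRCm38.p6, chr5:47982905-47983154, plus strand), with CG dinucleotides in capitals. No methylation value was analysed here.
Slit2: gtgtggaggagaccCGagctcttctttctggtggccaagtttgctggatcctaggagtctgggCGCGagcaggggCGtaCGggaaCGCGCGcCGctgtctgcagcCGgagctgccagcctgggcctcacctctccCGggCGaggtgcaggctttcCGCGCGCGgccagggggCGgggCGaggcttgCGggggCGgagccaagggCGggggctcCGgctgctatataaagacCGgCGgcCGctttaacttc
It holds 25 CG dinucleotides. Of the 32851 mouse promoter windows of this length 92.1% hold at least 1, with a median of 6. The windows of Flt1, Kdr and Tek hold 23, 16 and 2.

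**Figure D2:**
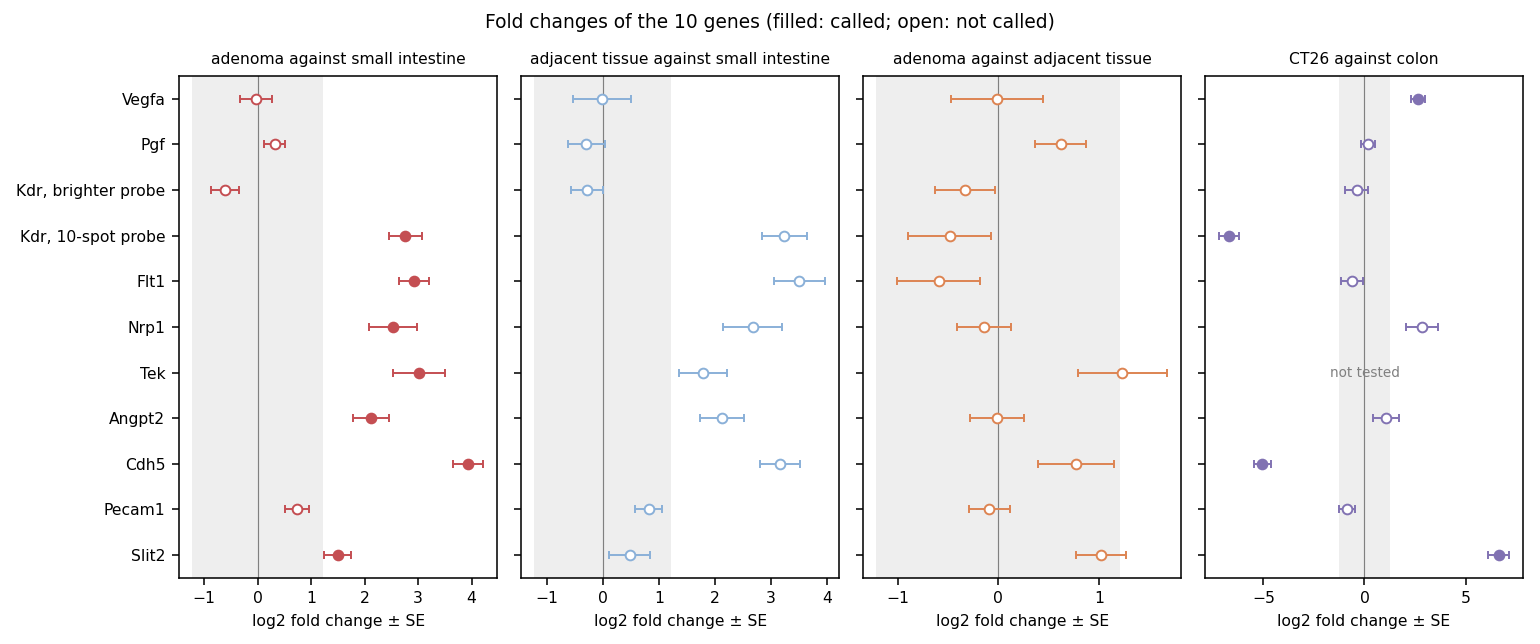
Log2 fold change and standard error of each gene from limma in 4 comparisons; filled points were called, open points were not, and the grey band spans the fold change threshold of 1.2 in either direction. In adenomas against small intestine 6 of the 10 genes are filled, and so is the Kdr probe printed 10 times. In adenomas against adjacent tissue none is filled. In CT26 against colon Slit2 at 6.63 and the Kdr probe printed 10 times at -6.69 lie at the ends, with Cdh5 at -5.04.

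Adenomas against small intestine compares tumour pieces of 1 Apc Min/+ mouse with healthy tissue of C57BL/6J mice. Tumour, genotype and animal cannot be told apart in it. Of the 10 genes, 6 were called higher (Cdh5, Tek, Flt1, Nrp1, Angpt2 and Slit2) and 0 lower, or 7 higher with Kdr read from the probe printed 10 times. Of the 22094 genes tested, 11.3% were called higher and 11.1% lower. Nrp1, dim on every small intestine array, was tested only through adenomas and could in practice only come out higher. The median log2 fold change was 1.81 over the 10 genes and -0.15 over all genes tested. Of the 10 genes, 7 had an unadjusted limma p under 0.05, as had 17535 of the 29539 probes tested. Within slide 1 the 6 called genes differed by 1.67 to 4.25 and within slide 2, with 1 array a group, by 1.16 to 3.28. Without adenoma replicate 1 the count was 3, and without adenoma replicate 2 it was 2, Flt1 and Cdh5. Nrp1 and Slit2 lost their call with the authors' own normalized values, at 1.07 and 1.04, and with normexp background correction, at 0.90 and 0.94, and also with all 5 groups in 1 fit.

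Against small intestine, adjacent tissue differed by sizes like those of adenomas for most of the endothelial genes. Cdh5, Flt1, Nrp1, Angpt2 and Tek were higher by 3.16, 3.51, 2.68, 2.13 and 1.79 on the log2 scale, with every adjacent array above every small intestine array. The probe of Kdr printed 10 times was higher by 3.24. None of these was called by limma with 2 against 3 arrays: the count was 0 of 10, while 6 of the 10 had an unadjusted p under 0.05. Over all 21640 genes tested 0.00924% were called higher and 0% lower, while 8750 of 28832 probes had an unadjusted p under 0.05. With all 5 groups in 1 fit, which shares one estimate of the spread, Cdh5 and Flt1 were called here, while Nrp1 and Slit2 were not called in adenomas. With the authors' values Tek was 0.66 and Nrp1 1.12, and with normexp 0.71 and 1.13. Slit2 (0.48) and Vegfa (-0.02) overlapped between these groups, as did Pgf (-0.29). The adenoma and adjacent comparisons share the small intestine arrays, so their values are set side by side only.

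Adenomas against adjacent tissue is a comparison within the 1 mouse. None of the 10 genes was called by limma, and 2 had an unadjusted p under 0.05, Tek (1.23) and Slit2 (1.02). Of the 22198 genes tested, 2.4% were called higher and 1.78% lower, and 11324 of 29733 probes had an unadjusted p under 0.05. The median over the 10 genes was -0.01, and over all genes -0.04. At a fold change threshold of 1 and an adjusted p of 0.05, Slit2 was called. Flt1 and Kdr (probe printed 10 times) were lower in adenomas by 0.59 and 0.48, within the spread of the arrays.

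Colon against small intestine compares the healthy segments. None of the 8 genes tested was called by limma, with 1 (Flt1, 1.37) at an unadjusted p under 0.05. Over 20643 genes, 0.00484% were called higher and 0.00484% lower, with 6413 of 27298 probes at an unadjusted p under 0.05. Nrp1 and Tek were not tested, since neither was well above background on all arrays of one of the groups. Colon replicate 2 had the highest colon values of Cdh5, Flt1, Tek, Nrp1, Pecam1 and the Kdr probe printed 10 times, and the highest median of the endothelial identity list (-0.14 against -1.48 and -1.11). The part of that list in these values was not tested. Without colon replicate 3 none of the 8 was called by limma either: Kdr went from -0.52 to -1.18, Angpt2 from 0.55 to 1.27 and Pgf from -0.32 to -0.65. Vegfa (-0.54 to -0.45), Pecam1 (0.30 to 0.37), Cdh5 (0.75 to 0.88), Slit2 (0.03 to 0.20) and the Kdr probe printed 10 times (1.40 to 1.36) moved less.

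In CT26 cells against colon, 3 of the 9 genes tested were called, Slit2 and Vegfa higher and Cdh5 lower, and Kdr was also called lower on the probe printed 10 times. Of the 21692 genes tested, 21% were called higher and 16.2% lower. Cdh5 and that Kdr probe, dim on every CT26 array, were tested only through colon and could in practice only come out lower. Flt1 did not follow Cdh5 and Kdr: it was well above background on all 3 CT26 arrays, and its difference of -0.61 from colon had a standard error of 0.541. Angpt2, Nrp1, Pecam1 and Pgf were also well above background on all 3. Without colon replicate 3 the same 3 genes were called. Within slides the called values were alike, for Vegfa 2.40 and 2.44, for Slit2 6.17 and 6.38 and for Cdh5 -5.79 and -4.86.

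Whether the adenoma and CT26 settings differed was tested as the adenoma minus small intestine difference minus the CT26 minus colon difference, which share no array. It was called for 5 of the 10 genes, against 15.3% of 23445 genes called higher and 15.5% lower. Flt1 (3.52, standard error 0.663) was relatively higher in the adenoma setting, and Slit2 (-5.13, standard error 0.602) and Vegfa (-2.67, standard error 0.475) in the CT26 setting. The fitted values of Cdh5 (8.96, standard error 0.558) and Tek (5.38, standard error 1.09) rest on CT26 spots not well above background. Limma adjusted p-values were 0.00136, 5.02e-05, 0.000945, 3.32e-07 and 0.00212 in that order. Counted from the CT26 bounds above, the difference was at least 7.03 for Cdh5 and at least 7.41 for the Kdr probe printed 10 times, whose fitted value was 9.45. With the authors' normalized values the fitted differences were smaller than these bounds, 5.02 and 5.51. For Tek no size is given beyond the fit, since 2 colon arrays were dim as well. Nrp1 (-0.31), Pgf (0.14), Angpt2 (1.05), Pecam1 (1.60) and the brighter Kdr probe (-0.22) were not called. Without colon replicate 3 the same 5 genes were called, at 3.66 for Flt1, -4.96 for Slit2, -2.58 for Vegfa, 9.09 for Cdh5 and 5.73 for Tek, and the Kdr probe printed 10 times was at 9.42. The others then read 0.42 for Nrp1, -0.19 for Pgf, 1.76 for Angpt2, 1.67 for Pecam1 and -0.88 for Kdr.

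A list of 25 other endothelial identity genes, which holds none of the 10, moved alongside them. In adenomas against small intestine 19 of 25 were called higher and 0 lower, with a median of 2.03 against -0.15 over all genes. Sox7 and Erg, dim on every small intestine array, were tested only through adenomas. The largest were Sox17 (91-fold, limma adjusted p = 0.00044), a transcription factor of arterial endothelium that intestinal tumours can also express, Sox7 (at least 4-fold, limma adjusted p = 0.00148), Robo4 (6.13-fold) and Eng (5.54-fold). Without 1 array the count ran from 14 to 20. In adjacent tissue against small intestine 25 of 25 were higher, with a median of 1.91, but 0 were called by limma and 22 had an unadjusted p under 0.05. In adenomas against adjacent tissue 0 of 25 were called, the median was -0.03, and 6 had an unadjusted p under 0.05. In bulk tissue, more endothelial cells and more RNA of these genes per cell cannot be told apart.

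**Figure D3:**
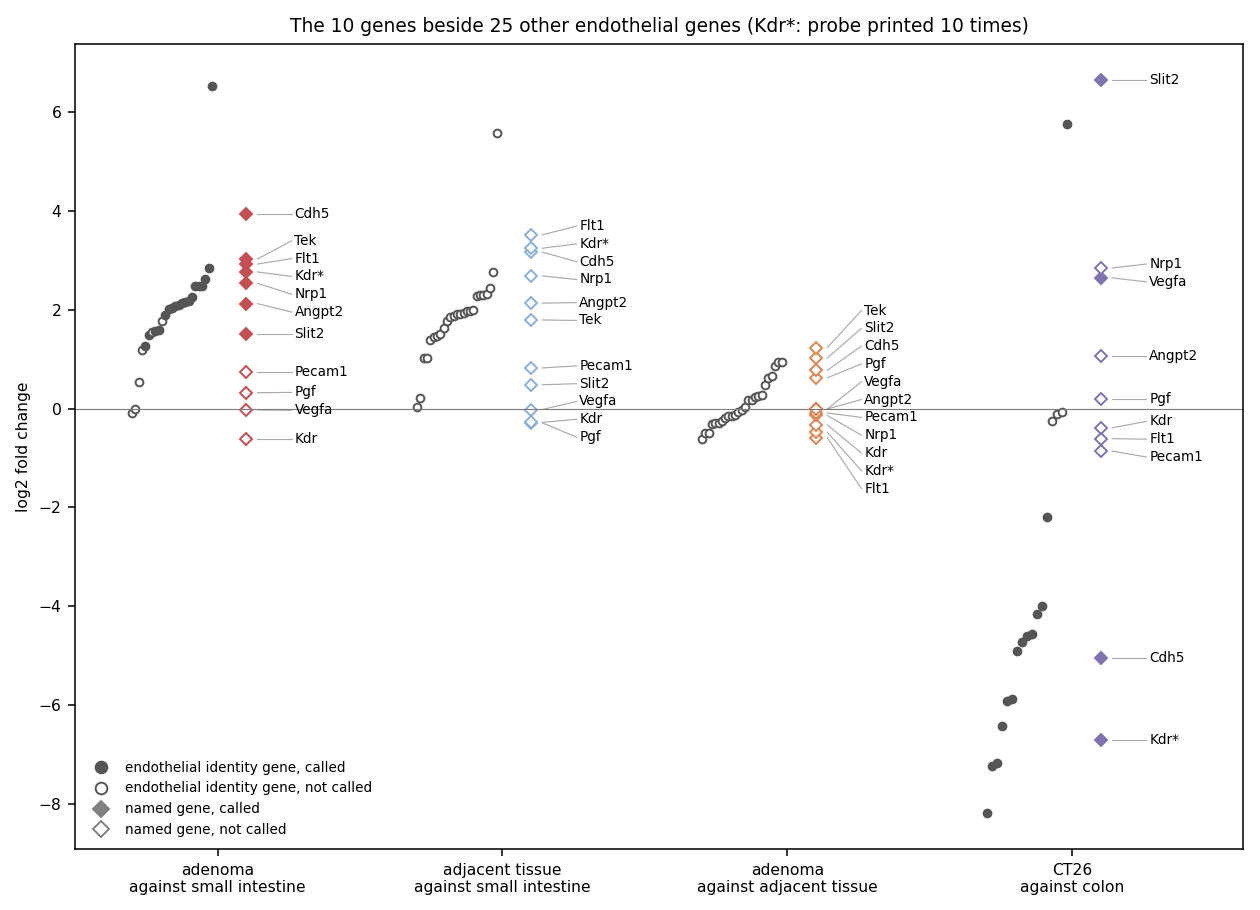
Log2 fold changes of the 10 genes (diamonds, with Kdr* the probe printed 10 times) beside those of the endothelial identity list (circles, in order of size) in 4 comparisons; filled symbols were called. In adenomas the endothelial members lie among the list's values, whose median is 2.03. In CT26 the median of the list genes tested, -4.60, lies far below Slit2 and Vegfa. List genes dim on every CT26 array were tested only through colon.

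In CT26 against colon 13 of the 17 list genes tested were called lower and 1 higher, with a median of -4.60 against 0.32 over all genes. The other list genes were not well above background on all arrays of either group and were not tested. Tie1, Esam, Cldn5, Robo4, Ramp2 and S1pr1 were dim on every CT26 array. They were tested only through colon and could in practice only come out lower, so the count and median lean that way. Ramp2 (at least 63.9-fold lower), Robo4 (at least 37.9-fold lower) and Egfl7 (144-fold lower, above background on 2 of 3 CT26 arrays) led the fall, and the gene that rose, named after its value was seen, was Cd34 (54.1-fold, limma adjusted p = 6.37e-05), a sialomucin of endothelial and progenitor cells. Without 1 array the number called ran from 12 to 18. Every fold of a list gene given as at least some value, here and elsewhere, was counted on this scale alone. With the authors' values and with normexp the CT26 differences of Cdh5 and Kdr were smaller than such bounds, and list genes were not read that way. The log2 of the list's summed signal ran from 7.73 to 7.88 in CT26 and from 4.12 to 5.58 in colon, and 9 to 13 of the 25 genes were well above background on a CT26 array.

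Set against the median of that list on the same array, the members kept or changed their place. Flt1 lay 0.36 to 0.81 above the list median in small intestine, 1.76 to 2.77 in adjacent tissue and 0.95 to 1.45 in adenomas. Cdh5 lay below the list in small intestine (-1.0 to -0.82) and above it in adenomas (0.33 to 1.35), with no overlap. Pecam1 went the other way, from -1.0 to -0.46 in small intestine to -2.61 to -2.22 in adenomas. Slit2 shifted less, from -1.28 to -0.50 in small intestine to -1.91 to -1.44 in adenomas. These are differences within an array, given as a description with no test.

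Genes named for sprouting tip cells did not move one way in adenomas. Of 9, 4 were called higher and 2 lower against small intestine: Cxcr4, a chemokine receptor (at least 5.56-fold higher), Esm1, a proteoglycan of tip cells (18.6-fold higher), Apln, the ligand of the apelin receptor (18.6-fold higher, dim on 2 of 3 small intestine arrays), and Angptl4, which epithelium also makes (7.13-fold lower), were the largest. Against adjacent tissue Cxcr4 was called (4.25-fold higher, limma adjusted p = 0.00462). In CT26 against colon 2 were higher, Esm1 (101-fold) and Apln (59.5-fold), and 5 lower, led by Nid2 (at least 6.85-fold) and Adm (21.8-fold, above background on 1 of 3 CT26 arrays).

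The counts of the following lists stand against 11.3% of all genes called higher and 11.1% lower in adenomas against small intestine, and 21% and 16.2% in CT26 against colon. In the adenoma comparison 17535 of 29539 probes had an unadjusted limma p under 0.05. Among the other ligands and receptors, 0 of 4 genes tested of the VEGF family and co-receptors were called in adenomas against small intestine by limma, with a median of 0.28 and 2 at an unadjusted p under 0.05. In CT26 Vegfc, the lymphatic growth factor, was at least 30.9-fold below colon. Of the 2 angiopoietin and TIE genes tested, Ptprb, the endothelial phosphatase, was called higher in adenomas (2.79-fold), and Tie1 (at least 5.04-fold) and Ptprb (17.7-fold) lower in CT26. Both are also in the endothelial identity list, as is Robo4 below, so these are not separate counts. Of 6 Slit and Robo genes tested, 4 were called higher in adenomas: Robo1 (45.2-fold, above background on 2 of 3 small intestine arrays, limma adjusted p = 4.52e-05), Srgap1 (at least 2.99-fold), Robo4 and Robo2 (2.54-fold, above background on 1 of 3 small intestine arrays). Robo1, a receptor of Slit2, was also higher against adjacent tissue (4.04-fold, limma adjusted p = 0.00665). In CT26 Slit3 was higher (27.9-fold), and Robo4 and Robo2 lower.

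Of the semaphorin ligands and plexins of neuropilins, 3 of 7 were called higher in adenomas and 0 lower, Sema3f (24.6-fold), Plxna3 (4.92-fold, dim on 2 of 3 small intestine arrays) and Plxnd1 (3.36-fold). In CT26 2 of 9 were higher and 4 lower, led by Sema3c (at least 110-fold lower) and Sema3a (63.8-fold higher, above background on 2 of 3 colon arrays). Of 16 other angiogenic factors and inhibitors, 7 were higher in adenomas and 1 lower. The largest were Vash2 (at least 5.08-fold higher), Ang, angiogenin (16.8-fold lower), and the inhibitors Thbs1 (11.3-fold higher) and Col18a1, the precursor of endostatin (10.8-fold higher). Vash2, Thbs1 and Col18a1 were also higher against adjacent tissue, by at least 5.02-fold and by 3.77-fold and 3.06-fold. Of 10 hypoxia-induced genes 2 were called higher in adenomas, Slc2a1 (6.21-fold) and Car9 (3.70-fold), a share near that over all genes, and the list median was 0.03. In CT26, where Vegfa was high, 1 hypoxia gene was higher, Ero1l (11.3-fold), and 4 lower, led by Egln3 (at least 102-fold).

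Markers of other cell types were counted against the same 11.3% and 11.1%. In adenomas against small intestine all 5 red cell genes tested were called higher (median 4.22), and the log2 of the list's summed signal was 3.86 to 5.38 in small intestine, 7.98 to 8.12 in adjacent tissue and 8.63 to 8.83 in adenomas. Of 8 pericyte genes 2 were called higher (Notch3, 6.76-fold, and Mcam, 3.80-fold), of 4 lymphatic genes 2 (Prox1, 40.2-fold, above background on 1 of 3 small intestine arrays, which intestinal epithelium and tumours also express, and Pdpn, 5.84-fold), and of 5 platelet genes 2. Smooth muscle genes had a median of -1.49, with 1 of 8 called lower. Of 7 fibroblast genes 3 were higher and 1 lower, and of 8 myeloid genes 1 was higher and 2 lower. Of 8 epithelial genes 1 was higher and 3 lower, 6 of 10 enterocyte genes were lower, 2 of 7 colonocyte genes were higher and 3 lower, and 8 of 10 proliferation genes were higher. Of 3 adipocyte genes tested 0 were called by limma, 1 had an unadjusted p under 0.05, and the list median on single small intestine arrays ran from -4.31 to 2.32. The 1 epididymis gene tested, Gpx5, was at least 74.7-fold higher in adenomas and at least 350-fold higher in adjacent tissue, both called. The other genes of that list (Crisp1, Lcn5, Lcn8, Lcn9, Adam7 and Cst11) were well above background on 0 arrays of every group. The part of these cell types in the values of the 10 genes was not tested.

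**Figure D4:**
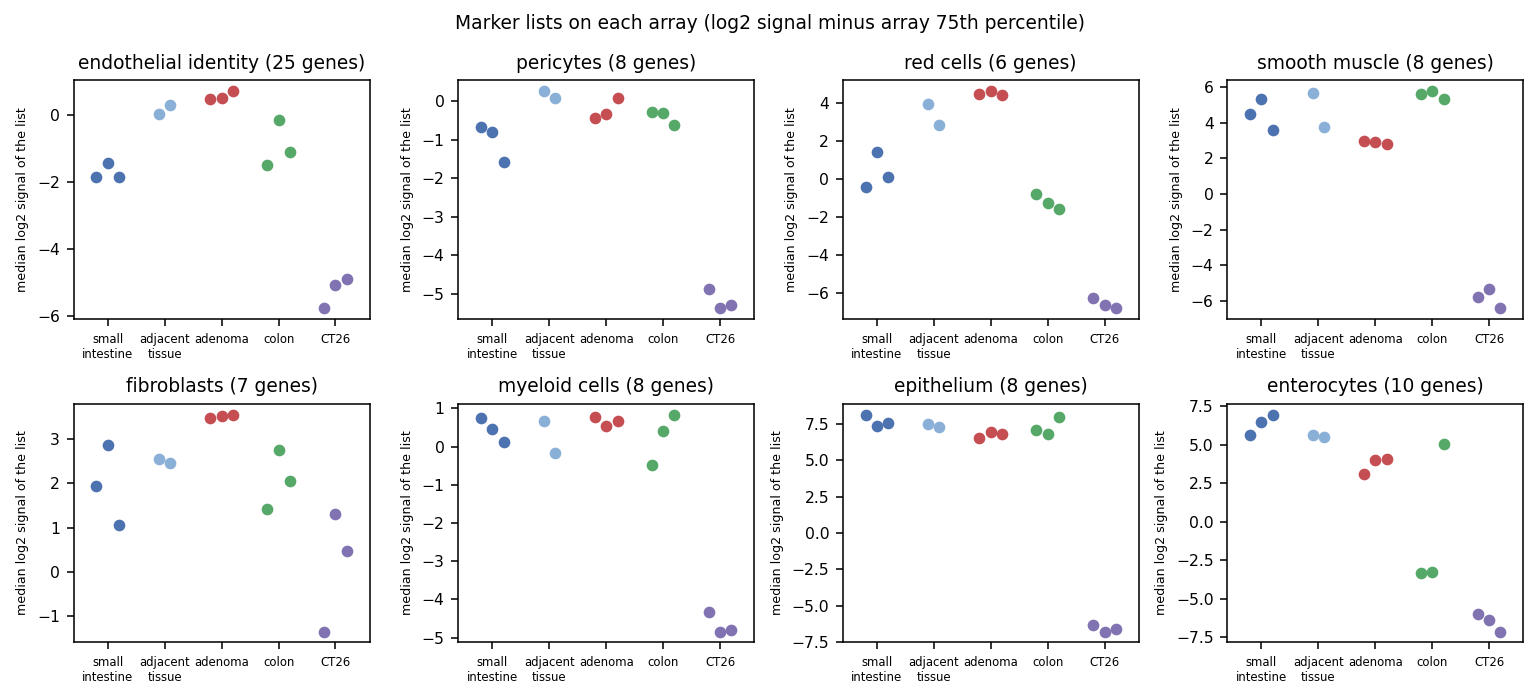
Median log2 signal (minus the array's 75th percentile) of 8 marker lists on each array, by group, 1 point an array. The endothelial identity and red cell lists sit higher in adjacent tissue and adenomas than in small intestine, the smooth muscle list is at 2.81 to 2.98 in adenomas, and colon replicate 3 has an enterocyte median of 5.04.

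Other genes tracked single members over the 14 arrays, measured as the root mean square difference after centring each probe. Nearest to Flt1 were Eng, Ndufa4l2 and Osmr (0.563, 0.622 and 0.651), and nearest to Tek were Alpl, Podxl and Cd93 (0.652, 0.655 and 0.718). Nearest to Cdh5 were Lama1, Arhgdig and Sema3f (0.481, 0.505 and 0.583). For Slit2 the nearest named genes were Tm4sf1 (0.384) and Tnfaip2 (0.474), and for Vegfa Tnfrsf10b and Pim3 (0.301 and 0.351). For Nrp1 they were P4ha2 and Cdh13 (0.534 and 0.571), for Angpt2 Zfhx3 and Adat2 (0.478 and 0.494), for Pgf Cdc42se1 and Myo3b (0.228 and 0.236) and for Pecam1 F630048H11Rik, LOC553089 and Pla2r1 (0.338, 0.363 and 0.364).

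Flt1, Tek and, on 1 of its probes, Kdr rose together in adenomas, and the 250 bases before their starts are shown (RefSeq, GRCm38.p6). Capitals mark GGAA on either strand (so also TTCC), the core that ETS factors bind, which are known regulators of endothelial genes.
Kdr, chr5:75978456-75978705, minus strand: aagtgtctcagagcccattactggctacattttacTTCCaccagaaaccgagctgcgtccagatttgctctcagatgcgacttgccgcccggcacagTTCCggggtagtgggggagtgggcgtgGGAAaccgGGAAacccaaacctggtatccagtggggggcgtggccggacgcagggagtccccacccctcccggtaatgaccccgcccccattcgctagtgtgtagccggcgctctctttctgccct
Flt1, chr5:147726012-147726261, minus strand: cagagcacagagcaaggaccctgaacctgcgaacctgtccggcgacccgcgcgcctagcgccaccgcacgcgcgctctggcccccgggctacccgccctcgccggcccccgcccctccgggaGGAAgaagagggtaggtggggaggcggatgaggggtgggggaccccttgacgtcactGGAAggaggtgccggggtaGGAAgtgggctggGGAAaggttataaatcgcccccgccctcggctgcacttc
Tek, chr4:94739039-94739288, plus strand: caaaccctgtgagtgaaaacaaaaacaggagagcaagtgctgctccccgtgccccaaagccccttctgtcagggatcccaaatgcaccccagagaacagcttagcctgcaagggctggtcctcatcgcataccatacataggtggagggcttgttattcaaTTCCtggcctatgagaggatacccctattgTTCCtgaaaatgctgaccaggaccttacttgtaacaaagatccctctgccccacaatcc
Kdr and Flt1 hold 4 such cores each and Tek 2. Of the 32851 promoter windows 93.4% hold at least 1, with a median of 3, and 33.4% hold 4 or more. Both windows of Pgf hold 0, and the first Vegfa window holds 6. A match of these letters is a description, not a site. Promoter sequences were matched for 7 of the 10 genes, all but Pecam1, Cdh5 and Angpt2.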

How the data were processed

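Total RNA of 14 samples was labelled with Cy3 and hybridised to Agilent SurePrint G3 Mouse arrays on 2 slides. The scanner files deposited by the authors hold spot intensity values, background subtracted and detrended by Feature Extraction 10.7.3.1, with probe coordinates in mm9. A deposited table of the authors holds normalized log2 values (medians near 6.86 on every array; the method is not given in the sources used here); its 21 columns of fold changes and p-values and 28 other per-sample columns (flags and detection) were not used.

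Outlier spots and controls were left out, log2 intensity minus the array's 75th percentile was taken, and spots of a probe were averaged. Each comparison was fitted in limma 3.58.1 (R 4.3.3) on its own arrays, after dropping probes that no group had well above background throughout, with the thresholds of the study's methods. Where a gene had several probes, the brightest on average stood for it. The scripts were tested on simulated data. Array number, not depth, limits precision.

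The rule for naming genes took all 10 members, up to 4 called genes a list and comparison, and the 3 most alike genes. Beside the members, 21 lists were used (endothelial identity, tip cell, VEGF family, angiopoietin and TIE, Slit and Robo, semaphorin and plexin, other angiogenic, hypoxia, lymphatic, pericyte, smooth muscle, fibroblast, myeloid, platelet, red cell, adipocyte, epididymis, epithelium, enterocyte, colonocyte and proliferation), with 5 listed genes not found under the listed names. Members and lists were chosen with earlier results of these data known. Alternatives were other values, normalization, background correction, filters, fits, blocks, thresholds, probe rules and leaving out each array, and, added after seeing the data, reading Kdr from its other probe and the list counts without single arrays.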

Additional observations from a re-analysis of the deposited data

Results flagged for a closer look

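The effect in adenomas (against small intestine) and the effect in CT26 cells (against colon) differed by limma's test of the difference itself for 5 of the 10 genes and for 1 probe of a sixth. Over all 23445 genes tested, 15.3% were called higher and 15.5% lower in that test. The difference of log2 fold changes was -2.67 for Vegfa, 3.52 for Flt1, 8.96 for Cdh5, 5.38 for Tek and -5.13 for Slit2. For the Kdr probe printed 10 times it was 9.45. Slit2 rose in both settings, Vegfa rose in CT26 alone of these comparisons, and Cdh5 rose in adenomas and fell in CT26, each against its tissue. The CT26 arrays of Cdh5, Tek and that Kdr probe were not well above background, so those 3 values are fitted and not measured sizes: the difference was at least 7.03 for Cdh5 and at least 7.41 for the Kdr probe, and 5.02 and 5.51 with the authors' normalized values, and no bound is given for Tek. Strain and culture cannot be told apart from transformation in CT26, nor genotype and animal from tumour in adenomas against small intestine. No group had over 3 arrays, so single arrays were not tested for standing apart.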

How the results depend on the processing

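Of the values of called genes over the alternatives in which their probe was tested, 267 kept their call, 17 lost it and 0 changed sign. Calls lost because a probe was filtered out are not in these numbers. When only probes well above background on all arrays were kept, Tek and Nrp1 dropped out of adenomas against small intestine in this way. Cdh5 dropped out of CT26 against colon. Counts of the 10 genes called ran from 2 to 7 for adenomas against small intestine over 18 alternatives, and from 2 to 6 when 1 array was left out. For adenomas against adjacent tissue the count was 1 at a log2 fold change of 1 and an adjusted p of 0.05, for adjacent tissue against small intestine 2 at those thresholds and 2 with all 5 groups in 1 fit, and for the difference of the adenoma and CT26 effects 3 when only probes well above background on all arrays were kept, which leaves out Cdh5 and Tek. The endothelial identity list had 6 called in adjacent tissue against small intestine at the looser thresholds, an alternative chosen after seeing the data. For colon against small intestine the count was 0 throughout.

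All values that changed sign belonged to genes not called in that comparison. With the authors' normalized table, Vegfa was 0.10 in adenomas against small intestine and 0.17 in adjacent tissue against small intestine, Pecam1 and Angpt2 both 0.02 in adenomas against adjacent tissue, Kdr 0.11 in adjacent tissue and 0.43 in the difference of effects, Slit2 -0.02 in colon against small intestine and Pgf -0.12 in the difference of effects. With quantile normalization the same values were 0.13, 0.18, 0 for Pecam1, 0.03 for Angpt2, 0.10, 0.45, -0.06 and -0.49. With normexp, Pgf was 0.01 in adjacent tissue against small intestine and -0.19 in CT26 against colon. With the slide as a block Vegfa was 0.07 in adenomas against adjacent tissue. The cause was not tested.

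Leaving out 1 array gave, in adenomas against adjacent tissue, -0.77 to 0.75 for Vegfa, -1.23 to 0.05 for Flt1, -0.21 to 0.06 for Pecam1, -0.22 to 0.21 for Angpt2, -0.38 to 0.09 for Nrp1 and -1.02 to 0.05 for the Kdr probe printed 10 times. It gave -0.32 to 0.12 for Vegfa in adenomas and, in adjacent tissue, -0.77 to 0.74 for Vegfa and -0.68 to 0.10 for Pgf, each against small intestine. In CT26 against colon it gave -0.94 to 0.27 for Kdr and -0.03 to 0.52 for Pgf. In colon against small intestine it gave -1.18 to 0.03 for Kdr, -0.05 to 0.57 for Pecam1 and -0.36 to 0.26 for Slit2, and in the difference of effects -0.88 to 0.33 for Kdr, -1.17 to 0.42 for Nrp1 and -0.19 to 0.36 for Pgf.

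The labels give no shared source for a replicate number across groups. Same-numbered deviations correlated at -0.00374, 0.0627 and -0.11 in adenomas and small intestine, -0.0886 and -0.0131 in adenomas and adjacent tissue, 0.322 and 0.109 in adjacent tissue and small intestine (2 pairs), -0.122, 0.0852 and -0.0856 in CT26 and colon, and 0.165, 0.0249 and 0.228 in colon and small intestine. With a replicate block, 5 of the 10 genes were called in adenomas against small intestine, since Nrp1 had an adjusted p of 0.0103, and no other call of these genes changed. The replicate block gave 0.08 for Vegfa and 0.11 for Angpt2 in adenomas against adjacent tissue and 0.13 for Vegfa in adjacent tissue against small intestine. With all 5 groups in 1 fit, 4 of the 10 genes were called in adenomas against small intestine, Nrp1 and Slit2 having adjusted p-values of 0.0145 and 0.0162. Arrays that read a probe below background give it no level, which limits Tek, Nrp1, Cdh5 and 1 Kdr probe in the groups named above.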
